A study of Oryza sativa and Arabidopsis thaliana with 28 samples.

Results

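The rice nuclear sites converted only after reduction are 2310 cytosine positions of chromosomes 1 to 8 at which T reads passed a set share in reduced RNA and were absent or nearly so in mock-treated RNA. They were selected on the read counts themselves. A site needed at least 50 reads in both ac4C-seq libraries, a T share of at least 5% in the treated library and a T share of at most 1% in the control library. The 2310 sites made up 0.713% of the 324172 listed sites with that coverage on these chromosomes, out of 329760 listed there and 341437 in the whole rice table. An 18S-sized gene on chromosome 2, at chr2:28719357-28721167 of IRGSP-1.0, was left out. Because the 2 rates chose the sites, they are given here as a description, without a test.

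N4-acetylcytidine (ac4C) is a cytidine that carries an acetyl group on its exocyclic amine, placed in eukaryotic RNA by acetyltransferases of the NAT10 family. It is best known from ribosomal RNA and transfer RNA, and its presence in messenger RNA has been studied in animals, yeast and plants. In ac4C-seq, cyanoborohydride in acid reduces the acetylated base, and reverse transcriptase then tends to read the reduced base as T. A site with T in the treated and not in the mock-treated library therefore has the signature that the assay looks for, while a T in both libraries does not.

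The ac4C-seq libraries came from seedlings of the rice cultivar Nipponbare at day 15. One poly(A) RNA library was treated with 100 mM NaCNBH3 in acid for 20 min, and the other, called control, received the acid without NaCNBH3. With 1 library on each side, no conversion rate has a replicate, and the intervals given are 95% Clopper-Pearson intervals. These intervals, and limits from counts of 0, reflect the error of counting alone, as PCR copies were not marked by molecular identifiers. A second assay, RNC-seq, compared osnat10-1 seedlings, called osnat10, with Kitaake seedlings, called WT. It sequenced total mRNA and mRNA pelleted with ribosomes (ribosome-nascent chain complex, RNC), with 2 libraries of each in each genotype. The age of these seedlings and the nature of the osnat10-1 allele are not given in the sources used here. The sites were therefore measured in another cultivar than the expression values set beside them. No rice gene ID matched the reference table of gene names, so genes are called by their IDs, no role is given to them, and the mutated gene and tissue markers were not checked.

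The conversion rates lay mostly close to the limit that selected them. The median treated rate of the 2310 sites was 6.29%, with quartiles at 5.46% and 8.57% and a highest value of 94.6%. By rate, 997 sites lay at 5 to 6%, 661 at 6 to 8%, 234 at 8 to 10%, 273 at 10 to 20%, 135 at 20 to 50% and 10 above 50%. The rate of the other covered sites had a median of 1.10%. In the control library 2216 of the 2310 sites (95.9%) had no T read at all, and 94 had at least 1.

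Read depth bears on both sides of this choice. The sites had a median of 136.5 treated reads and 111.5 control reads, against 793 and 721 at the other covered sites, and a median of 9 T reads. The authors' table lists no position with fewer than 5 treated T reads, so at 100 treated reads or fewer any listed site passes 5%. Of the 698 covered sites at that depth, 615 (88.1%) were selected, whereas above it 1695 sites, 0.524% of those covered, were. The share selected was 12.9% at 101 to 200 treated reads, 0.565% at 201 to 500, 0.0597% at 501 to 1000 and 0.0493% above 1000. Sites at 100 reads or fewer were 26.6% of the 2310. The lower bound of the treated interval reached 5% at 471 sites (20.4%).

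The control depth sets how firmly the absence of T can be read. For the 2216 sites without a control T read, the limit that a count of 0 allows (3 reads of the control depth) had a median of 2.78% and ran from 0.0356% to 6%. It was below 1% at 292 sites. At 64 sites the limit lay above the site's own treated rate, so that a control rate equal to the treated one was not detectable at this depth.

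**Figure D1:**
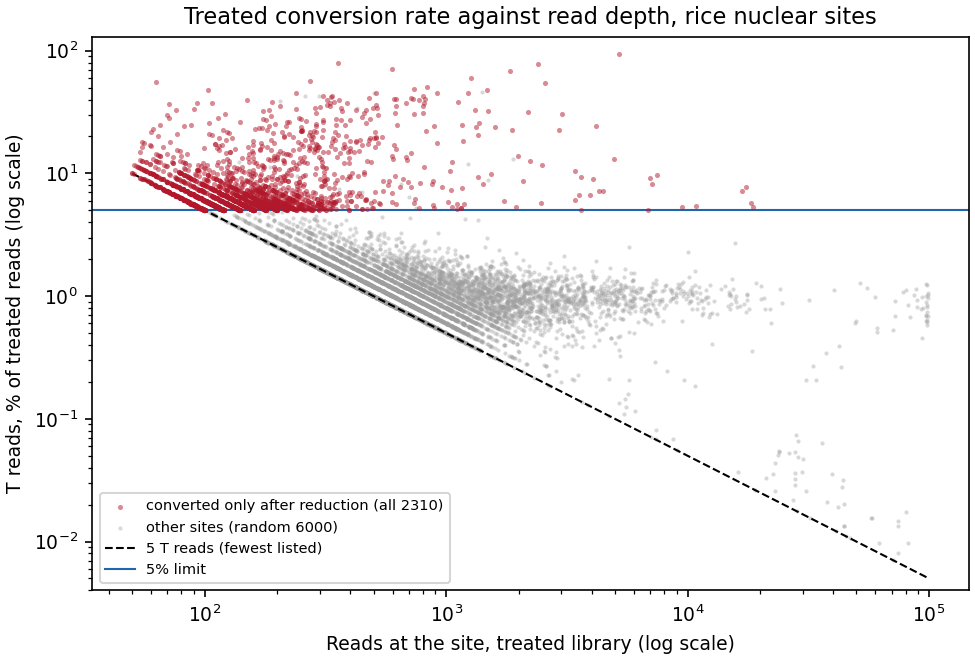
Treated conversion rate (T reads as a percentage of treated reads, log scale) against the number of treated reads (log scale), with each point 1 site. Red points are the 2310 sites converted only after reduction, grey points a random sample of other covered sites, the dashed line the rate given by 5 T reads and the blue line the 5% limit. Most red points lie at low depth just above the limit, while the grey points gather near 1% at high depth.

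The sites nearest to each limit differed by less than their intervals. Just inside the treated limit, 8 of 160 treated reads carried T at chr1:12068140, a rate of 5% with an interval of 2.18 to 9.61%. Just outside it, 44 of 882 did at chr6:27792768, a rate of 4.99% with an interval of 3.65 to 6.64%. At the control limit, chr1:626817 was kept with 1 T among 100 control reads, and chr2:18715682 was not, with 2 among 199. At the coverage limit, chr1:15165283 was kept with 50 control reads, and chr1:12108246, with 8 T among 80 treated reads and 0 among 49 control reads, was not.

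The site with the highest rate stood apart in both rate and depth. At chr7:20724692, base 112 of the 1489-base span of the plus-strand gene Os07g0529600, 4908 of 5188 treated reads carried T (94.6%, interval 94.0 to 95.2%). None of the 3258 control reads did, which allows a control rate of up to 0.0921%. Its surroundings were unlike it, since the 76 other covered sites within 75 bases had a median treated rate of 0.887% and none exceeded 1.35%.

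The next sites, taken 1 per gene or per 10 kb, had rates between 47.6% and 78.9% on fewer reads. Of these 11 sites, 1 lay in a plus-strand gene of the table, 2 in minus-strand genes and 8 in no gene of the table. At chr4:20708733, base 701 of the plus-strand gene Os04g0418800, 758 of 1270 treated reads carried T (59.7%), against 1 of 3202 control reads. A second selected site, chr4:20708673, lay 60 bases away in the same gene, with 480 of 1495 treated reads (32.1%) and 3 of 3750 control reads. The median treated rate of the 56 covered sites within 75 bases of the first was 0.569%.

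Sites in the other classes reached similar rates. In minus-strand genes, 1854 of 2400 treated reads (77.3%) carried T at chr2:19203229 in Os02g0525600, with 0 of 316 control reads. At chr1:4949360 in Os01g0192000 the counts were 1412 of 2569 treated reads (55.0%) and 0 of 314 control reads. Os01g0192000 held further selected sites at chr1:4949889 (37.4%) and chr1:4950805 (40.2%).

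Outside the genes of the table, a pair of sites on chromosome 7 lay 14396 bases apart. At chr7:3899736, T was read in 421 of 598 treated reads (70.4%) and 0 of 167 control reads, and at chr7:3885340 in 1255 of 1835 treated reads (68.4%) and 1 of 2163 control reads. The shallower sites of this class allow less. At chr1:22330953 the treated count was 280 of 355 reads (78.9%), but the control had 0 of only 60 reads, which allows up to 5%. At chr3:12630582 the counts were 154 of 272 treated reads (56.6%) and 0 of 135 control reads, and at chr6:18218680 they were 35 of 63 (55.6%) and 0 of 72. At chr5:6359630 they were 425 of 833 (51.0%) and 0 of 215, at chr6:22794704 359 of 739 (48.6%) and 0 of 70, and at chr4:5112849 49 of 103 (47.6%) and 0 of 169. The last 5 of these sites had no other covered site within 75 bases, while chr1:22330953 had 2, with a median treated rate of 2.55%.

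The strand of the surrounding gene was not used to choose the sites. The table gives no strand, and its cytosines are those of the reference strand, which lie opposite a G in RNA of a minus-strand gene. Of the 2310 sites, 310 (13.4%) lay in plus-strand genes of the expression table, 54 (2.34%) in minus-strand genes and 1946 (84.2%) in neither. Among the other covered sites, 52.6% lay in plus-strand genes, 0.825% in minus-strand genes and 46.5% in neither. The number in plus-strand genes over that in minus-strand genes was thus 5.74 for the selected sites and 63.9 for the other covered sites. For comparison, the 1235 sites with the same coverage and treated rate but more than 1% T in the control had a ratio of 0.971, with 99 sites (8.02%) in plus-strand and 102 (8.26%) in minus-strand genes.

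The balance of the strands differed between bands of treated rate. Among the selected sites the ratio was 18.6 at 5 to 6% (149 plus-strand, 8 minus-strand sites), 9.30 at 6 to 8% (93 and 10), 7.33 at 8 to 10% (22 and 3) and 2.58 at 10 to 20% (31 and 12). At 20 to 50% it was 0.684, with 13 sites in plus-strand genes and 19 in minus-strand genes, and above 50% there were 2 of each. Below the limit, with the same control limit, the ratio was 114 at 2 to 5%, 429 at 1 to 2% and 38.2 at 0 to 1%, so that it did not move one way across all bands. Among the 145 sites of at least 20%, the sites in minus-strand genes were therefore more numerous than those in plus-strand genes. These sites are cytosines of the strand opposite to the gene's RNA.

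Depth went with the strand as well. In minus-strand genes lay 0.163% of the selected sites at 100 treated reads or fewer, 0.712% at 101 to 200, 5.63% at 201 to 500, 12.1% at 501 to 1000 and 19.4% above 1000. The corresponding shares of the other covered sites were 3.61%, 0.409%, 0.343%, 0.275% and 1.63%. At 100 treated reads or fewer, 615 of the 698 covered sites were selected, so the 3.61% rests on few sites. Any listed site at that depth passes the treated limit, so the others there all had more than 1% T in the control. The shallowest band therefore cannot be compared with the deeper ones, where the others include sites below the treated limit. The part of antisense transcripts, of genes outside the expression table and of bases that differ from the reference was not tested.

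**Figure D2:**
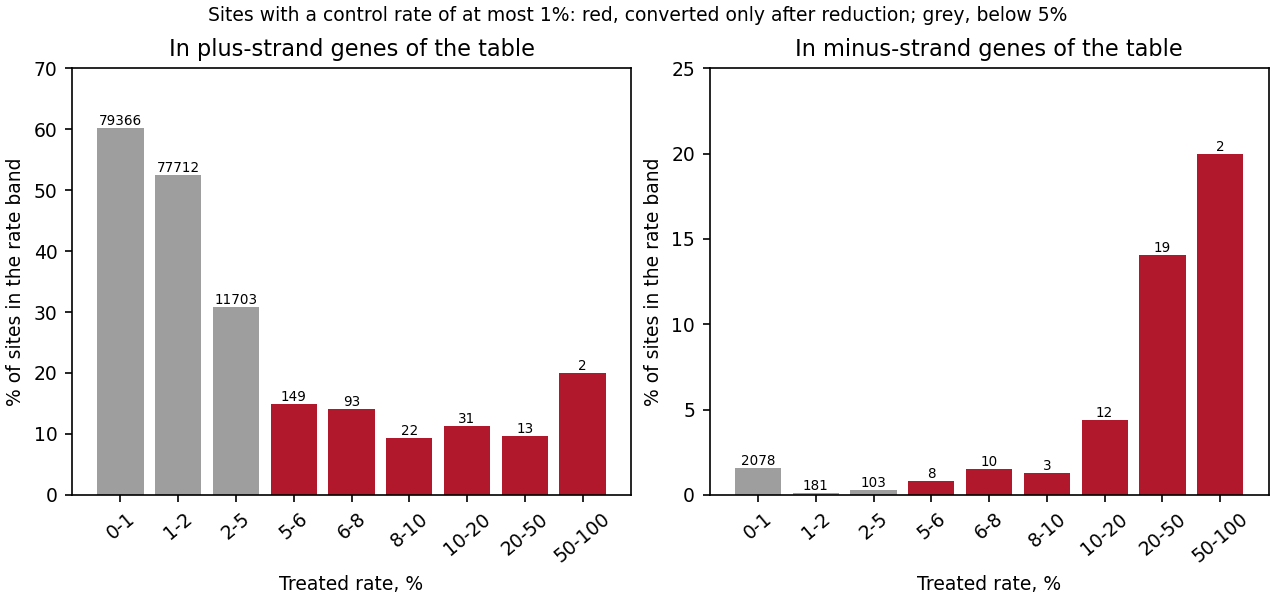
Share of sites (%) in plus-strand genes (left panel) and minus-strand genes (right panel) of the rice expression table, by treated rate (%), for sites with a control rate of at most 1%. Red bars are the sites converted only after reduction, grey bars sites below 5%, and the number on each bar counts its sites. The share in minus-strand genes was 0.802% at 5 to 6% and 14.1% at 20 to 50%.

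With all depths pooled, the selected sites within plus-strand genes lay nearer to the 5′ end than other covered sites, measured along the whole span with introns. The first 20% of the span held 111 of 310 sites (35.8%), against 14.8% of the 12644 other covered sites of the same genes. The last 20% held 13.2% of the selected sites and 43.8% of the others. The median place was 37.2% of the span for the selected sites and 74.7% for the others of the same genes.

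Depth moved with this place too. The median treated depth of the selected sites was 125 reads in the first 20% and 234 in the last. The shares were also taken at matched depth, against the other covered sites of all plus-strand genes. At 50 to 100 treated reads the first 20% held 33 of 50 selected sites and all 3 other covered sites of plus-strand genes. It held 39.9% of 148 selected sites and 36.8% of 1289 others at 101 to 200 treated reads. At 201 to 500 reads the shares were 17.9% of 78 selected sites and 22.5% of 26934 others, and above 500 reads the counts were 5 of 34 selected sites and 25422 of 141336 others. The share of the selected sites was thus the higher one at 101 to 200 reads and the lower one in the other bands, the shallowest of which had only 3 other sites. In the last 20% the share of the selected sites was lower in the bands above 100 reads. It was 8.78% against 13.3% at 101 to 200 reads, 24.4% against 32.7% at 201 to 500, and 20.6% against 33.2% above 500. At 50 to 100 reads the last 20% held 2 of 50 selected sites and 0 of the 3 others.

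**Figure D3:**
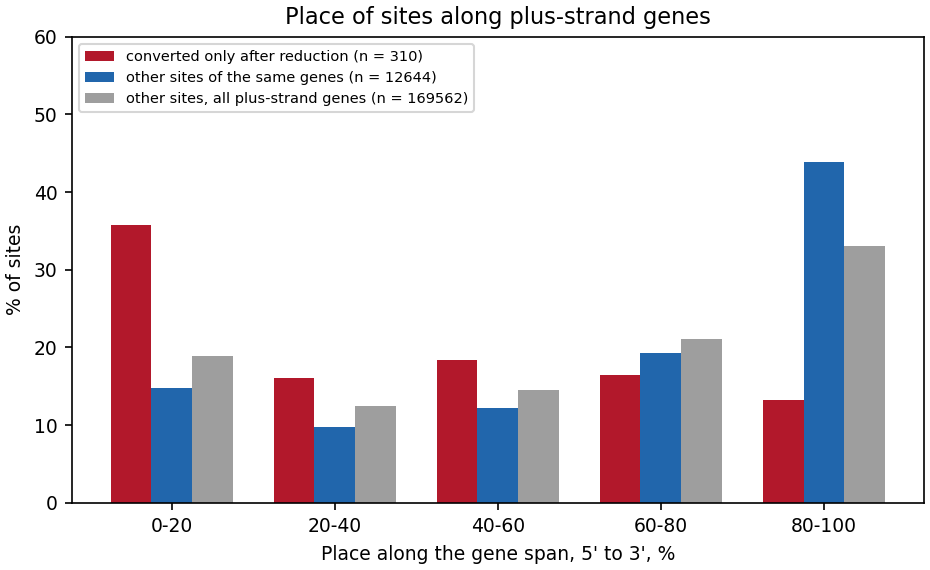
Share of sites (%) in each 20% of the gene span, from 5′ to 3′, for the 310 sites converted only after reduction in plus-strand genes (red), the 12644 other covered sites of the same genes (blue) and other covered sites of all plus-strand genes (grey). The first 20% of the span holds 35.8% of the red sites and the last 20% 43.8% of the blue ones. All depths are pooled in the bars.

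Most selected sites stood alone. The median distance to the next one was 2288.5 bases, and 117 sites (5.06%) had another within 10 bases, 526 (22.8%) within 150 and 940 (40.7%) within 1000. Listed neighbours were also scarce, since 53.7% of the selected sites had another covered site within 150 bases, against 96.8% of the other covered sites. A position was listed only with at least 5 treated T reads, so at low depth a neighbour needed a higher rate to be listed. The selected sites were shallower, with medians of 136.5 against 793 treated reads. Distances were not compared at matched depth. Joined at gaps of up to 500 bases, they formed 1857 groups, of which 1528 were single sites and 23 held at least 4 (117 sites in all).

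The groups with the most sites flanked the left-out 18S-sized gene. One set of 9 sites, at chr2:28715934-28716601, had treated rates of 5.01 to 13.1% on 3417 to 4947 treated reads, and control rates of 0.0188 to 0.522%. Another 9 at chr2:28721914-28721977 fell in the 319-base gene ENSRNA049471043, with treated rates of 5.04 to 9.75% on 6847 to 18670 reads and control rates of at most 0.211%. Of these, 4 were consecutive bases (chr2:28721974-28721977), where no control read of 5302 to 5327 carried T. All 18 lay within 10 kb of that gene. Reads of genes with near-identical copies can be split between them, and whether this holds here was not tested.

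Other groups had higher rates. In Os02g0510200, 7 sites at chr2:18236830-18237683 had rates of 5.57 to 19.8% on 341 to 541 treated reads, with 1 control T read among them all. Inside a minus-strand gene, 4 sites at chr1:2075443-2075969 had rates of 9.43 to 38.1% with no control T read. Outside the genes of the table, 4 sites at chr7:24396898-24397476 reached 15.9 to 39.8%, and 4 at chr7:1755341-1755476 reached 12.7 to 23.0% on 55 to 61 treated reads.

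By chromosome, the selected sites were 0.378% of the covered sites on chromosome 3 (237 sites), the lowest share. The highest was 1.07% on chromosome 7 (350 sites), followed by 0.964% on chromosome 8 (253 sites). Chromosome 1 held the most, 380 sites.

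The 310 sites in plus-strand genes fell in 184 genes, 11.8% of the 1553 plus-strand genes of the table with a covered site on these chromosomes. A single site was found in 120 of them, 2 sites in 34 and 3 or more in 30. These genes had a longer span (median 5055 bases) than the 1369 genes with covered sites and no selected one (3186 bases), and fewer covered sites (38 against 77 per gene, medians).

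They were also expressed at a lower level, per length. Their median was 13.0 RPKM in osnat10 mRNA and 12.1 RPKM in WT mRNA. The median of the genes without a selected site was 18.5 RPKM in osnat10 mRNA and 19.7 RPKM in WT mRNA. In RNC the genes with a site had medians of 15.6 RPKM in osnat10 and 18.4 RPKM in WT, against 24.7 and 26.8 RPKM for those without. The rule favours sites of low depth, and the part of depth in this difference of levels was not tested.

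The expression of these 184 genes in osnat10 was then set against WT, a measure the choice of sites did not use. The test was limma on log2(RPKM + 1) over all 3665 genes of the table with a mean of at least 1 RPKM, with p-values adjusted over all of them (Benjamini-Hochberg) and called below 0.05. Of the 184 genes, 183 passed the filter. The table lists only genes the authors called ac4C-modified, so it is no sample of all rice genes. Each group had 2 libraries, and 1 estimate of spread per gene was shared by the 4 groups of both fractions. The p-values measure this shared spread between those samples only, not that of the 2 groups compared alone, and it may be technical. In whole seedlings, fewer cells of a type and less RNA per cell cannot be told apart.

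Called changes were few among the genes with a selected site. In mRNA none was higher and 2 of 183 were lower in osnat10 (1.09%), where 1.2% of all tested genes were lower and 0.109% higher. In RNC none was higher and 7 were lower (3.83%), where 4.09% of all tested genes were lower and 0.573% higher. In translation efficiency (TE), the change in RNC beyond that in mRNA, limma called none of them and 0% of all genes, with a smallest adjusted p of 0.719. At an unadjusted p under 0.05, 11 of the 183 genes (6.01%) were lower in mRNA, against 8.21% of all tested genes, and 20 (10.9%) were lower in RNC, against 18.4%. In TE 7 (3.83%) were lower, against 3.55% of all. Higher at that p were 2 genes (1.09%) in mRNA, against 1.69% of all, 8 (4.37%) in RNC, against 4.58%, and 3 (1.64%) in TE, against 2.43%.

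The median log2 change of the 183 genes was 0.08 in mRNA, -0.12 in RNC and -0.19 in TE, and over all tested genes it was -0.07, -0.17 and -0.10. With each library's median set equal, the RNC median over all genes moved by more than 0.1, to -0.02, and that of the 183 genes changed sign, to 0.03. In mRNA the median of the 183 genes moved to 0.15 and that of all genes changed sign, to 0.01, and in TE they moved to -0.11 and -0.03.

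Os07g0529600, the gene of the 94.6% site, was among the genes called in both fractions. It had 6.73 and 9.61 RPKM in osnat10 mRNA, against 29.1 and 22.5 RPKM in WT mRNA. In RNC it had 5.62 and 7.08 RPKM in osnat10 libraries and 35.9 and 26.5 RPKM in WT libraries. Both osnat10 libraries lay below both WT libraries in each fraction. The log2 change was -1.55 (SE 0.29, limma adjusted p = 0.0364) in mRNA and -2.12 (SE 0.29, adjusted p = 0.00577) in RNC. The call in RNC held under all 15 alternative settings, and that in mRNA was lost under 7 of 15 (adjusted p 0.00842 to 0.465).

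Os02g0647900, with 2 sites of 5.63% and 6.52%, was the other gene called in both. It had 1.92 and 2.61 RPKM in osnat10 mRNA, against 8.59 and 8.29 RPKM in WT mRNA (log2 change -1.54, SE 0.30, limma adjusted p = 0.0451). In RNC it had 4.03 and 5.99 RPKM in osnat10 and 22.1 and 27.0 RPKM in WT (log2 change -2.10, SE 0.30, limma adjusted p = 0.00664). The groups did not overlap in either fraction. Its mRNA call was lost under 10 of 15 alternatives (adjusted p 0.00768 to 0.556).

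The other 5 genes were called lower in RNC alone, and no difference between the fractions was called for any of them. Os06g0316100, with 1 site of 5.37%, had 2.63 and 2.85 RPKM in osnat10 RNC and 10.1 and 17.7 RPKM in WT RNC (log2 change -1.95, SE 0.30, limma adjusted p = 0.00853). Its mRNA levels were 17.7 and 17.6 RPKM in osnat10 and 19.9 and 19.0 RPKM in WT. Os08g0565800, with 1 site of 5.41%, had 10.6 and 13.8 RPKM in osnat10 RNC and 27.9 and 28.5 RPKM in WT RNC (log2 change -1.16, limma adjusted p = 0.0385). Its mRNA libraries overlapped, with 10.9 and 13.2 RPKM in osnat10 and 10.6 and 12.2 RPKM in WT. The TE change of Os06g0316100 was -1.81 (SE 0.42) and that of Os08g0565800 was -1.23 (SE 0.35), both with a limma adjusted p of 0.719.

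The remaining 3 genes were not called in mRNA either. Os07g0600700 had 22.6 and 39.8 RPKM in osnat10 RNC and 79.7 and 81.8 RPKM in WT RNC (log2 change -1.40, limma adjusted p = 0.0254). Its mRNA stood at 13.4 and 16.2 RPKM in osnat10 and 35.4 and 35.4 RPKM in WT (adjusted p = 0.0800). Os04g0631200 had 5.10 and 14.7 RPKM in osnat10 RNC and 41.6 and 32.1 RPKM in WT RNC (log2 change -1.94, limma adjusted p = 0.0371). Its mRNA was lower too, at 3.56 and 4.33 RPKM in osnat10 and 13.4 and 10.6 RPKM in WT. That log2 change of -1.39 was not called (limma adjusted p = 0.222). Os02g0509500 had 8.21 and 31.6 RPKM in osnat10 RNC and 79.6 and 79.0 RPKM in WT RNC (log2 change -2.21, limma adjusted p = 0.0352). In mRNA it had 33.5 and 30.1 RPKM in osnat10 and 52.5 and 42.8 RPKM in WT (log2 change -0.56, limma adjusted p = 0.824).

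These last calls depended on the setting. In Os02g0509500 the osnat10 RNC libraries were far apart, and the call was lost under 9 of 15 alternatives (adjusted p up to 0.138). It was lost under 10 for Os04g0631200 (up to 0.134), 9 for Os08g0565800 (up to 0.147), 5 for Os07g0600700 (up to 0.122), 2 for Os06g0316100 (up to 0.0956) and 1 for Os02g0647900 (up to 0.0533). The sign of the change remained under each of the 15 settings for these genes. Both osnat10 RNC libraries of each gene lay below both WT RNC libraries, so leaving out a library could not reverse it. The number of genes with a selected site called lower in RNC also moved with the library left out. How the number over all tested genes moved under the same settings is not given here.

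**Figure D4:**
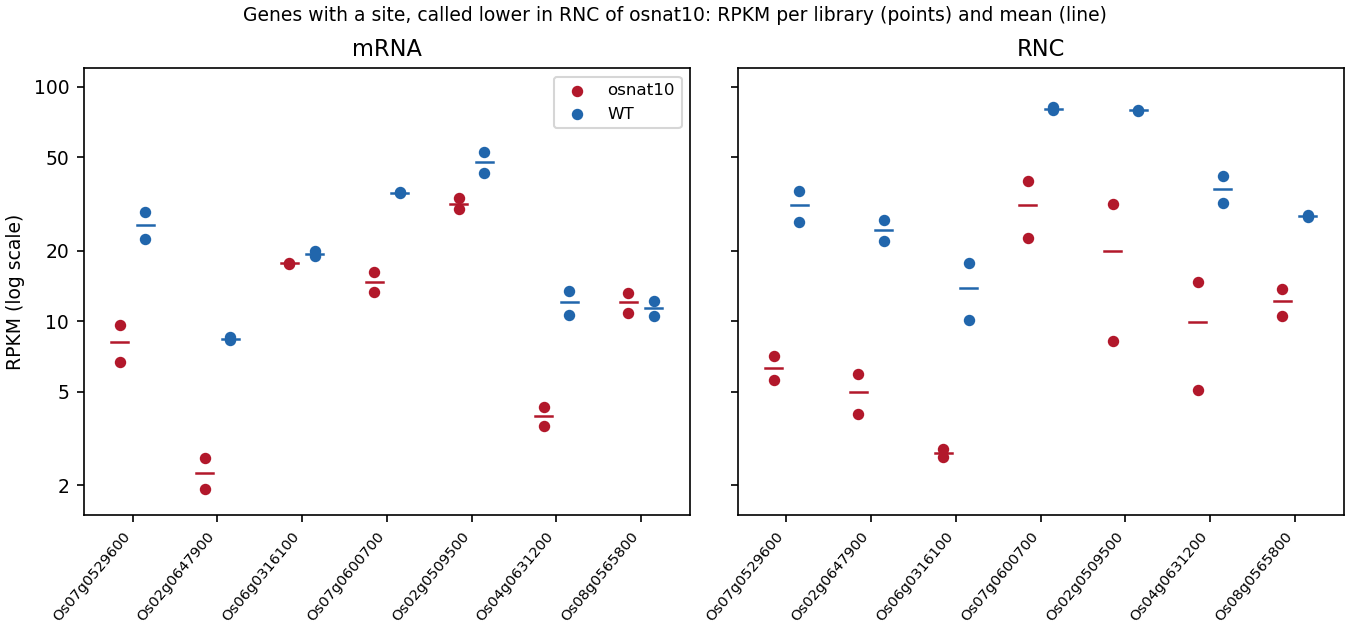
RPKM (log scale) in mRNA (left panel) and RNC (right panel) of the 7 genes with a selected site that were called lower in osnat10 RNC. Points are the 2 libraries of osnat10 (red) and WT (blue) and lines their means. The genes were chosen by their call in RNC, so the lower red points of the right panel are no separate evidence.

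Of the plus-strand genes with the most selected sites, 4 held 6 to 9, and 5 tied at 5 sites, of which the 2 with the most treated T reads (65 and 42) are described with them. They included 1 of these calls, Os07g0600700, whose 6 sites had rates of 5.66 to 20.6%. Os02g0510200 had 8 sites, of 5.57 to 19.8%, and 125 and 149 RPKM in osnat10 mRNA, against 154 and 110 RPKM in WT mRNA. In RNC it had 85.5 and 95.7 RPKM in osnat10 and 101 and 103 RPKM in WT, a log2 change of -0.17 (SE 0.20, limma adjusted p = 0.654). ENSRNA049471043, with the 9 sites described above, had 96.5 and 57.5 RPKM in osnat10 RNC and 46.0 and 63.7 RPKM in WT RNC, and the libraries overlapped.

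The other 3 lay mostly at low rates on shallow reads. Os01g0348600 held 5 sites of 5.08 to 7.69% on 71 to 195 treated reads, and had 16.9 and 22.1 RPKM in osnat10 RNC against 13.8 and 15.9 RPKM in WT RNC (log2 change 0.36, limma adjusted p = 0.443). Os07g0201100 held 5 sites, 4 of them at 5.05 to 6.85% and 1 at 18.6%, and its RNC levels overlapped at 25.9 and 23.7 RPKM in osnat10 and 27.5 and 22.0 RPKM in WT. Os06g0498400 held 6 sites of 5.13 to 7.41% on 81 to 272 treated reads. It had 6.02 and 8.52 RPKM in osnat10 mRNA and 4.22 and 5.51 RPKM in WT mRNA, while in RNC it had 6.63 and 8.46 RPKM in osnat10 and 11.1 and 9.11 RPKM in WT. Its libraries did not overlap in either fraction and lay in opposite directions, and how often this occurred over all tested genes is not given here. Neither the mRNA nor the RNC change was called (limma adjusted p = 0.706 and 0.501). The TE change of -0.87 (SE 0.44) was not called either (limma adjusted p = 0.797).

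A site of at least 20% was present in 14 plus-strand genes, a set chosen after its values were seen. Their log2 changes in mRNA ran from -1.55 to 0.73, with 8 above 0 and 6 below, and 1 was called, where 1.2% of all tested genes were called lower and 57.2% lay below 0. In RNC they ran from -2.12 to 0.45, with 2 above 0 and 12 below, and 2 were called, Os07g0529600 and Os07g0600700, where 4.09% of all tested genes were called lower and 64.2% lay below 0. In TE they ran from -1.02 to 0.02, with a median of -0.34, 1 above 0 and 13 below, where 58.8% of all lay below 0, and none was called. At the high end Os01g0279100, with 1 site of 22.3%, had 124 and 138 RPKM in osnat10 mRNA and 74.3 and 82.3 RPKM in WT mRNA (log2 change 0.73, SE 0.18, limma adjusted p = 0.127). Os04g0418800, with sites of 59.7% and 32.1%, had 154 and 185 RPKM in osnat10 RNC and 216 and 195 RPKM in WT RNC (log2 change -0.28, SE 0.22, limma adjusted p = 0.491). Os01g0595400, with 1 site of 44.9%, had 13.6 and 16.0 RPKM in osnat10 RNC and 23.9 and 21.0 RPKM in WT RNC (log2 change -0.57, SE 0.22, limma adjusted p = 0.170). Os02g0618200, with a site of 45.0%, had 8.40 and 10.0 RPKM in osnat10 RNC and 8.52 and 17.7 RPKM in WT RNC, and the libraries overlapped.

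**Figure D5:**
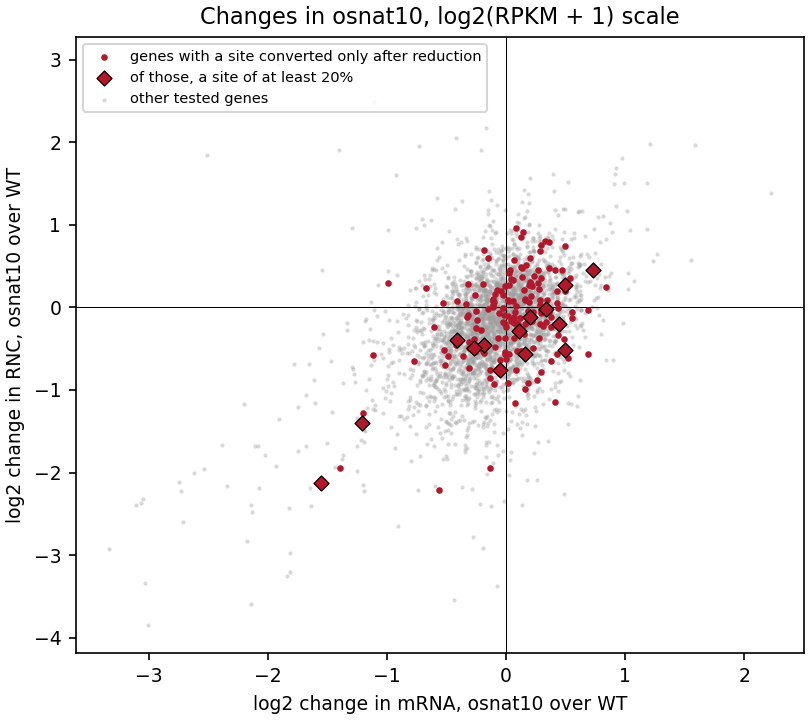
Log2 change of each tested gene in RNC (vertical axis) against that in mRNA (horizontal axis), osnat10 over WT, on the log2(RPKM + 1) scale. Red points are the 183 genes with a site converted only after reduction, diamonds those with a site of at least 20%, and grey points the other tested genes. The red points lie among the grey ones, with Os07g0529600 as the diamond at -1.55 and -2.12.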

How the data were processed

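The submitters' processing notes name STAR 2.5.3a, SAMtools and the rice build IRGSP-1.0; what each tool did, and how sites came to be listed, is not given in the sources used here. The deposited rice site table holds read counts per reference cytosine and a p-value. The deposited p-value matched a comparison of proportions in which the C column counts all reads at 100% of sites (tolerance 0.001), and at 1.93% if it counted unconverted reads, so rates are T over the C column. Depth differed by site, as the report gives. The second deposited table holds the authors' RPKM values, which are not counts, over 5602 transcript rows, equal within each of 3695 genes; no library depth was derived from them. Its osnat10 columns are numbered, whereas the WT columns share a name, so WT libraries are called first- and later-listed.

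The sites, gene lists and tests were chosen with earlier results of these data known. Sites were assigned to plus-strand gene spans. RPKM plus a pseudocount of 1 was tested on the log2 scale in R 4.3.3 by limma 3.58.1, using eBayes with a trend. The 4 groups shared 1 fit without a block. Genes needed a mean RPKM of at least 1 and were called at a Benjamini-Hochberg adjusted p under 0.05; TE is the interaction term. Fold changes of low genes are understated on this scale. The fit was also run on simulated data, and how many changes it found there is not given here. Tables were made with Python 3.11.15, numpy 2.4.6, pandas 2.3.3 and scipy 1.17.1.

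The sites named are the 12 highest by treated rate (1 per gene or per 10 kb) and those nearest each limit. The genes named are the 6 with the most sites (ties by summed treated T reads), those called (up to 8 a direction) and those of the 12 sites; genes with a site of at least 20% were added after values were seen. Alternatives were other coverage, rate and strand rules, pseudocounts, filters, centring, variance models and libraries left out. No sequence around the sites was read. The acRIP-seq libraries were not used here.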

Additional observations from a re-analysis of the deposited data

How the results depend on the processing

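The number of sites depended on the limits of the rule: there were 1052 sites at 100 reads in both libraries, 12061 at a treated rate of at least 3% and 418 at 10%, against 2310. They fell in 783 and 35 plus-strand genes at 3% and 10%, against 184. At 10% the share in plus-strand genes was 11.0% and that in minus-strand genes 7.89%. Without the 18 sites beside the left-out gene, an alternative chosen after seeing the data, neither count moved by over 1.5 times. Of these sites, 9 lay in ENSRNA049471043 and 9 in no gene of the table, so neither count could have moved that far.

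Genes with a selected site that were lower in osnat10 mRNA numbered 1 instead of 2 with pseudocounts of 0.1 or 5, a mean of at least 5 RPKM, centred medians or eBayes without trend, and 6 with the mRNA libraries alone, which added Os04g0137201, Os04g0182200, Os04g0631200 and Os07g0600700. With 1 library left out they numbered 0 to 5: 0 without any 1 mRNA library or either WT RNC library, and 5 without either osnat10 RNC replicate. In RNC, higher genes numbered 1 (Os05g0182700, named after its value was seen) instead of 0 with a pseudocount of 5 or centred medians, and 0 to 1 with a library left out (Os03g0103100 without either WT mRNA library, Os08g0127100 or Os01g0595100 without osnat10 RNC replicate 1 or 2). Lower genes in RNC numbered 2 instead of 7 with the RNC libraries alone, and 1 to 22 with a library left out: 22 without osnat10 RNC replicate 2, 1 and 3 without the later- and first-listed WT RNC library, 4 without either WT mRNA library and 3 without either osnat10 mRNA replicate. In TE, 0 to 1 gene was lower with a library left out, Os02g0509500 without osnat10 RNC replicate 2. The lone library left in a group is then assumed to vary like the other groups. Calls among all tested genes under these settings are not given here, so whether all genes moved alike cannot be read. The cause of these moves was not tested. No called gene of the report changed sign under any alternative. In the fraction of each call both osnat10 libraries lay below both WT libraries, so leaving out a library could not change the sign. No paired analysis was possible because the WT columns carry no replicate number.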

Other observations

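The 1235 sites with at least 5% T in the treated library and more than 1% in the control had a median rate of 9.72% in the treated library and 11.6% in the control, on medians of 263 treated and 163 control reads. In plus-strand genes, 14.1% of the 99 such sites lay in the first 20% of the span and 26.3% in the last 20%. They are positions where T was read without reduction.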
